A study of Camelus dromedarius with 4 samples.

Results

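Of the 16049 gene symbols with a mean read count in both seasons, 10 were described here because of what their products do in the response to osmotic challenge and in the making of vasopressin. The rule that chose them used gene names and no measured value, although earlier results of these data were known. They were the tonicity-responsive transcription factor NFAT5, the osmolyte genes AKR1B1, SLC5A3 and SLC6A6, the kinase SGK1, the cation channels TRPV1, TRPV2 and TRPV4, and 2 regulators of vasopressin mRNA, CREB3L1 and CAPRIN2. All 10 had a row in the table. The study compared the supraoptic nucleus of dromedary camels in the Algerian winter and summer, and stranded total RNA from 2 libraries per season was sequenced after depletion of ribosomal RNA. All donors were healthy, hydrated adult males of the Tergui breed, age-matched by their teeth. The winter animals were slaughtered at El Oued and the summer animals at Ouargla, each on a single date, so season, place and day cannot be told apart. The labels name no other treatment in either group. The labels number the libraries winter 2 and 3 and summer 1 and 2. The paper counts 2 camels per season for RNA sequencing, although the labels tie no library to a named animal. The p-values given here measure only the spread between these libraries.

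The supraoptic nucleus holds large magnocellular neurones that make vasopressin and oxytocin and that respond to the osmolality of the fluid around them. A cell in hypertonic fluid first shrinks, then activates NFAT5, which switches on genes that import or make small organic osmolytes (sorbitol, myo-inositol, taurine, betaine) and so restores cell volume without raising the salt content. In the rat, channels of the TRPV family are part of how magnocellular neurones sense such changes, CREB3L1 activates the vasopressin promoter, and the CAPRIN2 protein binds vasopressin mRNA and affects the length of its poly(A) tail.

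The deposited count files held 4379162 to 6902037 reads on gene models per library, but their 64989 gene models carry no gene names. Values for named genes came from a table in which the authors gave the mean of each season in normalized reads (counts divided by the DESeq size factor of the library), with no spread. Because each mean is a sum of whole reads, the reads of the 2 libraries could be recovered by solving each mean for whole numbers, and 100% of the means had a solution. A single solution in both seasons, with a season mean of 10 or more, was found for 7646 symbols. The libraries of each season are named by their size factor (1.33 and 0.946 in winter, 0.922 and 0.877 in summer), since the table does not say which replicate is which. As a check, the recovered reads of the 4 members with single solutions were looked for in the count files, in either order of the libraries. Those of TRPV1 occurred together in 1 gene model, and those of AKR1B1, TRPV4 and CREB3L1 in none, so the recovered reads rest on the arithmetic of the table alone and were not found again in the count files. The summer libraries stood apart from each other: 34.4% of these symbols differed by more than 2-fold between them, 2118 of the 2629 being higher in the library of the smaller size factor, against 16.8% between the winter libraries. Results that rest on either summer library are therefore also given against each of them. The tissue label was checked against its markers. AVP, listed as a putative gene, had a mean of 2560 in winter and 11822 in summer, OXT 621 and 592, PDYN 35.9 and 127, SIM1 38.6 and 56.3, and POU3F2 44.5 and 45.4. The winter libraries also stood apart in some of these markers. PDYN had 63.4 normalized reads at the larger size factor and 8.46 at the smaller. SIM1 had 63.4 and 13.7, whereas POU3F2 had 44.5 and 44.4. Among markers of neighbouring hypothalamus, PMCH had 149 and 5.29 and TRH 116 and 58.2, while HCRT had 3.02 and 5.29. The part of these gaps between the winter libraries in the members' values was not tested. Markers of other cells were present as well, and none of those in the table had a season mean of 0. FOXJ1 and PIFO, markers of the lining of the ventricles, and HCRT had season means under 10 and 0 reads in 1 library each. In bulk RNA, fewer cells of a type and less RNA per cell cannot be told apart.

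No member passed the 2-fold limit between the seasons. Of the 9 members with a season mean of 10 or more, 4 were higher in the winter mean and 5 in the summer mean, and 0 differed by more than 2-fold, a size that 7.26% of the 13808 symbols with such a mean reached. The members' median log2 ratio of winter to summer was -0.06, beside -0.04 over those 13808 symbols. CAPRIN2 alone exceeded 1.5-fold, a limit exceeded by 22.3% of all these symbols and by 14.9% of the 610 with a season mean of 1000 or more, which include NFAT5 and CAPRIN2. The counts are not divided by gene length, so levels are compared within a gene only.

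**Figure D1:**
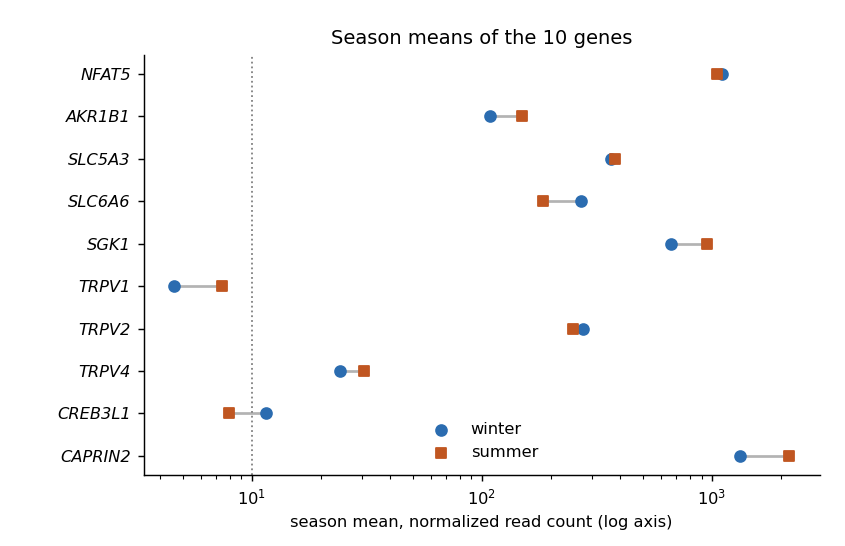
Season means of the 10 genes, in normalized reads on a log axis, with a circle for winter and a square for summer, and a dotted line at a mean of 10. The marks of NFAT5 and SLC5A3 nearly coincide, CAPRIN2 has the widest gap among genes above the line on this scale (1317 in winter and 2158 in summer), and TRPV1 lies below the line in both seasons.

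NFAT5, the transcription factor that drives the osmolyte response, was close to level between the seasons. Its mean was 1108 normalized reads in winter and 1053 in summer, a log2 ratio of 0.07, and 86.0% of the 13808 symbols differed by at least as much. At this height many pairs of whole reads give the same mean: 58 in winter and 34 in summer, or 1972 combinations. The seasons overlapped in 1967 of them and winter lay above summer in 5. With the most even pairs, which were 1448 and 1063 reads in winter (1093 and 1124 normalized) and 962 and 933 in summer (1043 and 1063 normalized), the log2 fold change was 0.07 ± 0.34 (SE), with an adjusted p of 0.988 in edgeR's quasi-likelihood test. The data thus leave the libraries of NFAT5 undetermined, while the means differ by 1.05-fold.

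Among the 3 osmolyte genes, AKR1B1 was higher in summer, SLC6A6 was higher in winter, and SLC5A3 had nearly the same mean in both. AKR1B1 encodes aldose reductase, which makes sorbitol from glucose. It had a single solution, with 155 and 95 reads for the winter libraries of the larger and the smaller size factor (117 and 100.5 normalized) and 127 and 142 in summer (138 and 162 normalized). Both winter values lay below both summer values. Of the 3 members with single solutions and a mean of at least 10, 1 (AKR1B1) had seasons that did not overlap, beside 30.5% of the 7646 symbols. The smallest two-sided p of an exact permutation test of 2 libraries against 2 is 0.33. The summer mean was 1.38-fold the winter mean. The fitted log2 fold change of winter over summer was -0.46 ± 0.33 (SE), with an adjusted p of 0.981 in edgeR's quasi-likelihood test. Against the summer libraries the log2 ratio of the winter mean was -0.34 and -0.57. That both are negative already follows from the order of the libraries. Aldose reductase belongs to a family with closely similar copies in mammals, and how the authors' counting treated reads shared between copies is not given in the sources used here, so its values are uncertain to that extent.

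SLC5A3 encodes the cotransporter that carries myo-inositol into cells with sodium. Its mean was 364 normalized reads in winter and 379 in summer, and 88.8% of the symbols differed by at least as much. The summer mean had 1 solution, with 452 reads at the larger and 235 at the smaller size factor (490 and 268 normalized). The 3 winter solutions were 344 and 443, 529 and 311, and 714 and 179 reads. In each of them the seasons overlapped. The sign of the difference depended on the summer library: on the log2 scale, the winter mean stood at -0.43 relative to the library of the larger size factor and at 0.44 relative to the other. In RefSeq's annotation of another dromedary assembly SLC5A3 overlaps MRPS6, a gene of the mitochondrial ribosome with means of 42.1 and 32.7, and the strand setting of the counting is not stated, so reads of the pair cannot be told apart.

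SLC6A6 encodes the taurine transporter. Its mean was 269 normalized reads in winter and 184 in summer, 1.46-fold higher in winter, and 24.5% of the symbols differed by at least as much. The summer reads were 218 and 115 (236 and 131 normalized). Winter had 3 solutions: with 333 and 271 reads (251 and 287 normalized) each winter value exceeded each summer value, whereas with 518 and 139 or with 703 and 7 reads the seasons overlapped. The winter mean exceeded both summer libraries, by a log2 ratio of 0.19 over that of the larger size factor and of 1.04 over the other. In edgeR's quasi-likelihood test with each winter solution in turn, the log2 fold change was 0.55 to 0.56, its SE 0.37 to 1.20 and its p 0.176 to 0.653, with adjusted p of 0.981 to 0.985. The 3 osmolyte genes therefore did not share a direction.

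SGK1, a kinase that is raised by cell shrinkage and by glucocorticoids and that keeps channels and transporters at the cell surface, had a mean of 663 normalized reads in winter and 954 in summer. Summer was 1.44-fold higher, a gap reached by 26.2% of the symbols. Winter had 3 solutions (815 and 672, 1000 and 540, or 1185 and 408 reads) and so had summer (509 and 1189, 1023 and 700, or 1537 and 211). Of the 9 combinations, 2 placed both winter libraries below both summer libraries, both of them with 1023 and 700 reads in summer, and the other 7 overlapped. Over the 9 the fitted log2 fold change was -0.53 to -0.52, with an SE of 0.46 to 0.89 and adjusted p of 0.981 to 0.983 in edgeR's quasi-likelihood test. Among the relatives and partners of SGK1, the kinases SGK2 (375 in winter, 258 in summer) and SGK3 (687 and 686) did not exceed 1.5-fold, and TSC22D3, a glucocorticoid-induced gene, had means of 258 and 410. These genes were chosen for naming after their values were seen.

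**Figure D2:**
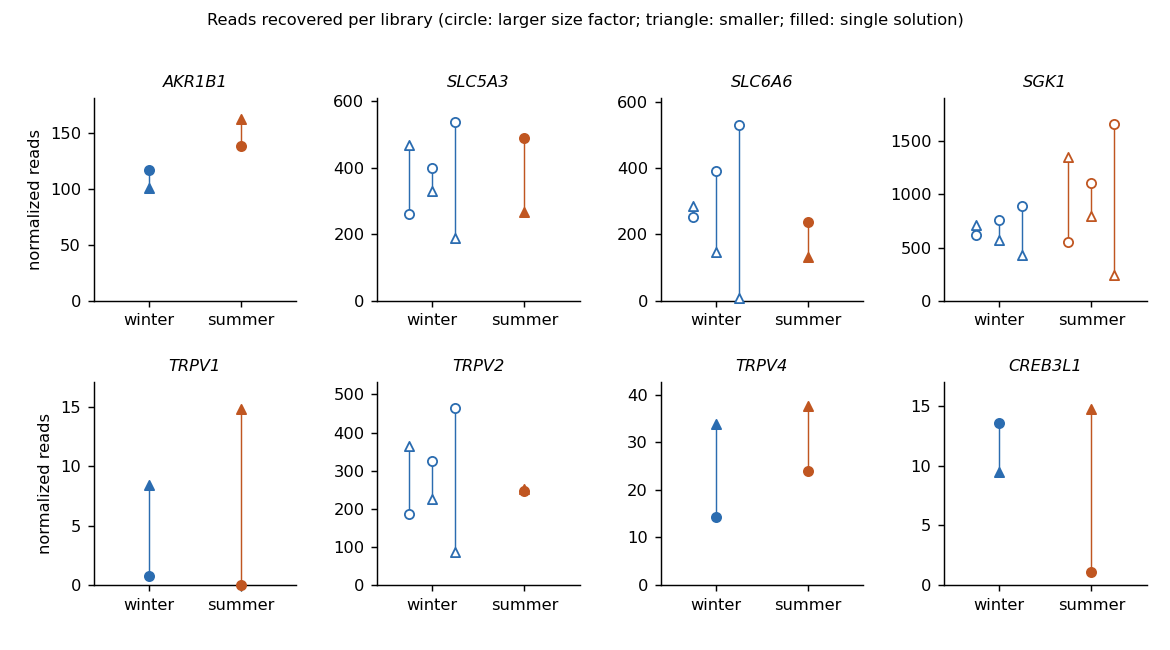
Normalized reads recovered in each library for the 8 genes with 9 or fewer combinations of solutions, with winter in blue and summer in orange, circles for the larger and triangles for the smaller size factor, filled marks for single solutions and open marks for each of several. The winter and summer marks of AKR1B1 do not overlap, while TRPV1 and CREB3L1 lie near 0 in the summer library of the larger size factor (0 and 1.08) and at 14.8 in the other.

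For each of the 3 TRPV channels the seasons overlapped in every solution, and TRPV1 was at the edge of detection. TRPV1 is the channel of heat and capsaicin, of which a variant has been tied to osmosensing in rodent magnocellular neurones. The winter libraries held 1 and 8 reads and the summer libraries 0 and 13. In normalized reads these were 0.755 and 8.46 against 0 and 14.8, and a count of 0 in that summer library allows up to 3 reads, or 3.25 normalized, from counting error alone. With means of 4.61 and 7.41 it was the only member under 10 in both seasons, and a symbol-level count does not separate its variants. The ratio of winter to summer reads was 0.549 with an exact 95% interval of 0.207 to 1.39, which covers counting error only. At this depth no difference in TRPV1 was detectable.

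TRPV2, a channel that opens on membrane stretch, had means of 276 in winter and 249 in summer, and 72.2% of the symbols differed by at least as much. Its summer libraries held 228 and 220 reads (247 and 251 normalized), which were nearly equal. The 3 winter solutions, 247 and 345, 432 and 213, and 617 and 81 reads, all straddled them. With each in turn the log2 fold change was 0.14 to 0.16 and the SE 0.36 to 0.69, with adjusted p of 0.985 to 0.988 in edgeR's quasi-likelihood test. TRPV2 overlaps LRRC75A and a long non-coding RNA in the RefSeq annotation, with the same doubt about strand.

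TRPV4, a channel that opens when cells swell, had means of 24.1 in winter and 30.7 in summer. The libraries held 19 and 32 reads in winter (14.3 and 33.8 normalized) and 22 and 33 in summer (23.9 and 37.6 normalized), so the spread within each season exceeded the gap between them. The fitted log2 fold change was -0.39 ± 0.67 (SE), with an adjusted p of 0.981 in edgeR's quasi-likelihood test. Against the summer library of the larger size factor alone the ratio of the winter mean was 0.01 on the log2 scale, and against the other -0.64. Leaving out the winter library of the larger size factor turned the fitted value to 0.14.

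CREB3L1 and CAPRIN2, the regulators of vasopressin expression, differed in opposite directions between the season means. CREB3L1 is a transcription factor held in the endoplasmic reticulum until it is cleaved. It was sparsely read, with 18 and 9 winter reads (13.6 and 9.52 normalized) and 1 and 13 summer reads (1.08 and 14.8 normalized). The winter libraries lay between the summer libraries. The means were 11.6 and 7.95, 1.45-fold higher in winter, and the fitted log2 fold change was 0.58 ± 1.04 (SE), with an adjusted p of 0.981 in edgeR's quasi-likelihood test. This direction rested on 1 library. Without the summer library of the larger size factor the log2 fold change was -0.34, and without the other it was 3.30, with an adjusted p of 0.217 in edgeR's quasi-likelihood test. In that last setting the summer arm is 1 library with 1 read and the spread comes from the winter libraries alone. CREB3L1 there passed the rule of an unadjusted p under 0.05 and more than 2-fold, as did 15.2% of the 7646 symbols. Over both summer libraries the ratio of winter to summer reads, scaled by size factor, was 1.53. Its exact 95% interval of 0.774 to 3.15 covers counting error only and includes 1. Against that single summer read the ratio was 10.96, but the library was taken because its count was low, so no interval is given. CREB3L1 overlaps a long non-coding RNA in the RefSeq annotation, so its few reads are uncertain in origin.

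CAPRIN2, the RNA-binding protein that binds vasopressin mRNA, had the widest gap of the 9 members with a mean of at least 10. Its mean was 1317 normalized reads in winter and 2158 in summer, 1.64-fold higher in summer. A gap this wide was reached by 15.8% of the 13808 symbols and by 8.20% of the 610 with a mean of at least 1000. The means allowed 67 solutions in winter and 72 in summer. Of the 4824 combinations, 645 placed both winter libraries below both summer libraries and 4179 overlapped. That 0 placed them above was fixed beforehand, because the winter mean is the lower. These combinations are not equally likely, so their counts are no measure of how probable an order is. The most even pairs were 1686 and 1288 reads in winter (1272 and 1362 normalized) and 1972 and 1910 in summer (2138 and 2177 normalized). With these, which give the smallest spread, the log2 fold change was -0.71 ± 0.38 (SE), with an adjusted p of 0.981 in edgeR's quasi-likelihood test. Even so CAPRIN2 did not pass an unadjusted p of 0.05. Its relative CAPRIN1, also an RNA-binding protein, had means of 732 and 759. AVP, whose mRNA CAPRIN2 binds in the rat, had a log2 ratio of winter to summer means of -2.21, and CREB3L1 had 0.54.

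**Figure D3:**
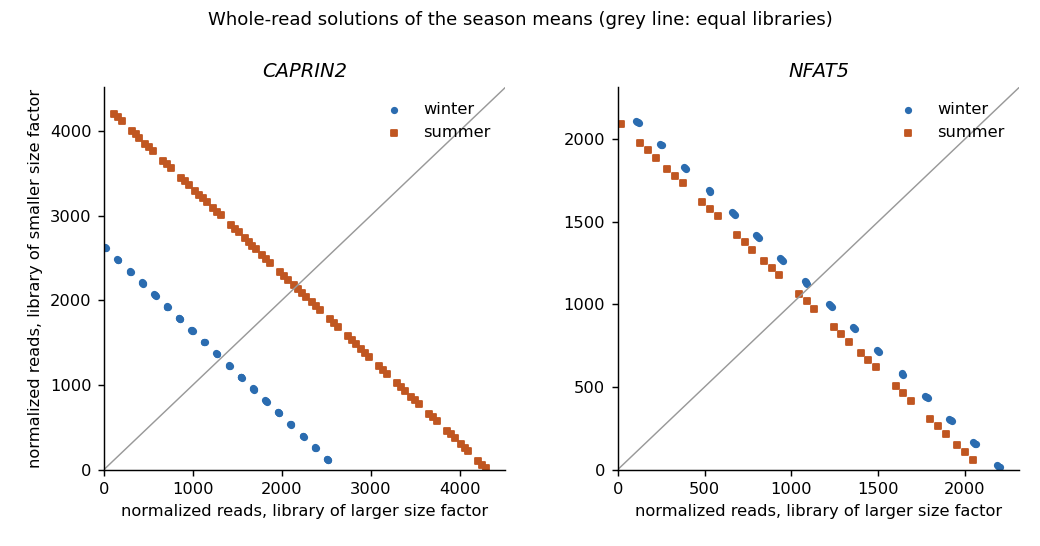
Whole-read solutions of the season means of CAPRIN2 and NFAT5, each point giving the normalized reads of the library of the larger size factor (horizontal axis) and of the smaller (vertical axis) in 1 season, with a grey line where both are equal. The 67 winter and 72 summer solutions of CAPRIN2 form separate lines, while the 58 and 34 of NFAT5 lie nearly on each other. The place of each line is set by its season mean.

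Across the members, 3 could be tested on single solutions with a mean of at least 10 (AKR1B1, TRPV4 and CREB3L1), and 0 of them passed an unadjusted p under 0.05 with more than 2-fold in edgeR's quasi-likelihood test. Of all 7646 symbols tested, 128 (1.67%) passed that rule, 65 higher in winter and 63 in summer, and 152 had an unadjusted p under 0.05. An adjusted p under 0.05 was reached by 0 symbols in this test, by 1 in edgeR's exact test and by 1 in DESeq2. For TRPV1, fitted without the limit on the mean, the log2 fold change was -0.82 ± 1.49 (SE), with an adjusted p of 0.983 in edgeR's quasi-likelihood test. Of SLC5A3, SLC6A6, SGK1, TRPV2, NFAT5 and CAPRIN2, none had an unadjusted p under 0.05 with any solution that was fitted, and of NFAT5 and CAPRIN2 only the most even was.

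**Figure D4:**
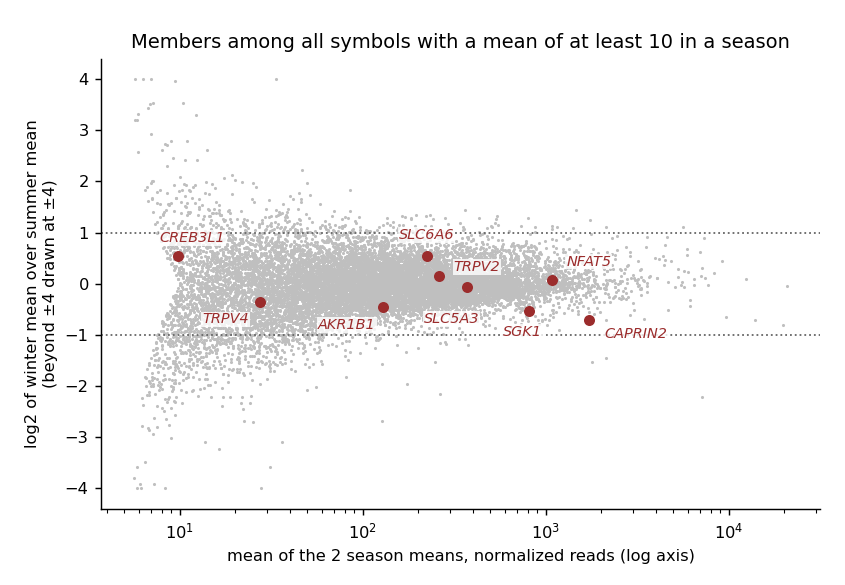
The log2 ratio of winter to summer mean against the average of the 2 season means in normalized reads (log axis), with all 13808 symbols in grey, the 9 members with a mean of at least 10 in red, and dotted lines at 2-fold. All 9 members lie between the lines, and CAPRIN2, at -0.71, is nearest to 1 of them.

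The other genes of these pathways were read from 5 lists of 83 genes, of which 77 were in the table and 71 had a season mean of 10 or more. Of the 71, 33 were higher in the winter mean and 38 in the summer mean, and the median log2 ratio was -0.06. Beyond 2-fold there were 0 in winter and 5 in summer, namely GADL1, AQP4, AVP, NR4A1 and CRTC3, a count to be read beside the 7.26% of all symbols. Of the 25 genes with single solutions, 1 (CRTC3) passed the rule of an unadjusted p under 0.05 and more than 2-fold. Over all 7646 symbols tested, 1.67% passed that rule.

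Of 17 genes of osmolyte transport and synthesis, 6 were higher in winter and 11 in summer, with a median log2 ratio of -0.17. The betaine transporter SLC6A12, a classical target of NFAT5, was read 51 and 39 times in winter and 15 and 35 times in summer. Its means were 39.9 and 28.1. In normalized reads the libraries held 38.5 and 41.2 against 16.3 and 39.9, so the seasons overlapped. The myo-inositol synthase ISYNA1 had means of 130 and 127. Sorbitol dehydrogenase, SORD, which acts after AKR1B1, had means of 128 and 155. GADL1, which decarboxylates amino acids on a route to taurine and related compounds, held 15 and 17 winter reads against 3 and 81 summer reads. Its summer mean of 47.8, against 14.6 in winter, rested on the library of the smaller size factor, and without that library the log2 fold change turned from -1.72 to 2.11. SLC6A12, ISYNA1 and SORD were chosen for naming after their values were seen.

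Of 10 genes of NFAT5 activity and its targets, 5 were higher in each season, 0 exceeded 1.5-fold, and the median log2 ratio was -0.08. The kinase MAPK14, which acts upstream of NFAT5, had means of 153 in winter and 220 in summer, and the target HSPA4L had 667 and 639. Of 10 partners of SGK1, 4 were higher in winter and 6 in summer, with a median of -0.06. Among these partners 0 lay beyond 2-fold and 1 (TSC22D3) beyond 1.5-fold. The ubiquitin ligase NEDD4L, which SGK1 phosphorylates, had means of 511 and 614. The counts beyond 2-fold and 1.5-fold are to be read beside 7.26% and 22.3% of the 13808 symbols. MAPK14, HSPA4L and NEDD4L were chosen for naming after their values were seen.

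Of 16 channels of volume and osmolality sensing, 11 were higher in winter and 5 in summer, with a median log2 ratio of 0.04. TRPV3, a relative of the TRPV members, held 96 and 104 winter reads against 35 and 67 summer reads. In normalized reads these were 72.4 and 110 against 38.0 and 76.4, so the seasons overlapped. The stretch channel PIEZO1 had means of 933 and 596. TRPV3 and PIEZO1 exceeded 1.5-fold toward winter, a limit that 22.3% of the 13808 symbols exceeded in either direction. Both channels were chosen for naming after their values were seen. The astrocyte water channel AQP4 held 9 and 3 winter reads against 9 and 9 summer reads, with a winter mean of 4.98 and a summer mean just over 10, so it barely met both limits.

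Of 18 regulators of the vasopressin gene, AVP included, 7 were higher in winter and 11 in summer, with a median of -0.16. CRTC3, a coactivator of CREB, held 50 and 29 winter reads against 56 and 79 summer reads. Its seasons did not overlap, as was the case for 30.5% of the 7646 symbols. Its log2 fold change was -1.13 ± 0.44 (SE), with an adjusted p of 0.981 in edgeR's quasi-likelihood test. With 1 library left out, the other season alone gives the spread. CRTC3 did not pass in DESeq2, nor without either winter library (log2 fold changes -1.29 and -0.99) or without the summer library of the smaller size factor (-0.82). The other CRTC coactivators in the list had higher winter means, 255 against 160 in summer for CRTC1 and 57.5 against 36.1 for CRTC2. The seasons of CRTC2 did not overlap either, with winter above summer. CRTC1 and CRTC2 were chosen for naming after their values were seen. NR4A1, an immediate-early gene of activated neurones, held 24 and 6 winter reads against 7 and 55 summer reads. The fitted log2 fold change of NR4A1 turned from -1.43 to 0.73 without the summer library of the smaller size factor. The relatives of CREB3L1 had near-level means, 165 and 185 for CREB3L2 and 122 and 121 for CREB3L4, and were chosen for naming after their values were seen.

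**Figure D5:**
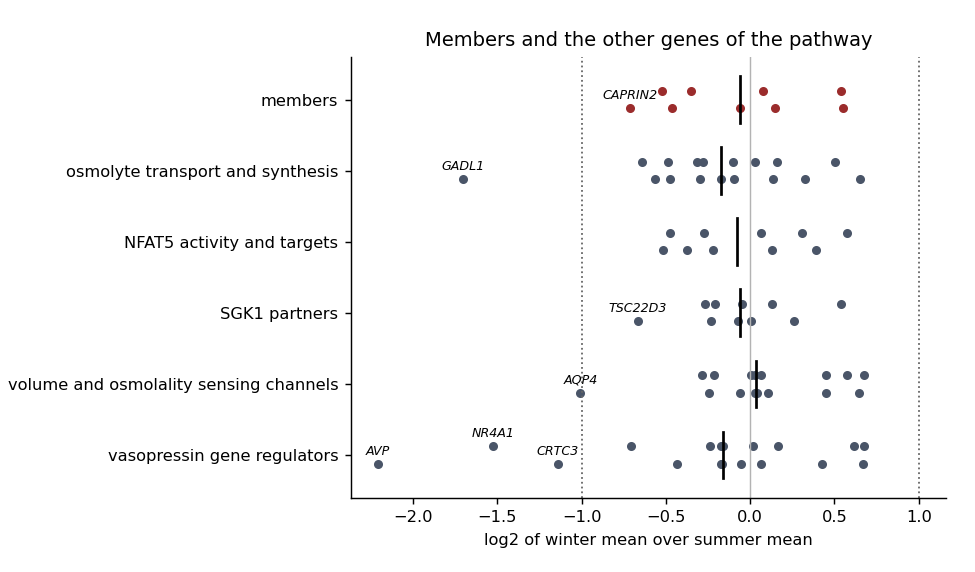
The log2 ratio of winter to summer mean of the 9 members and of the genes of the 5 pathway lists with a season mean of 10 or more (points), with a black bar at each median and dotted lines at 2-fold. The medians lie between -0.17 and 0.04, and the 5 genes beyond 2-fold (GADL1, AQP4, AVP, NR4A1 and CRTC3) are all on the summer side.

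Cell type markers also differed between the means, and their part in the values above was not tested. The summed mean of the astrocyte markers was 15497 in winter and 26109 in summer, of which GFAP made up 14423 and 25074, and 3 of 6 were higher in summer. All 4 neuronal markers in the table (SNAP25, SYT1, RBFOX3 and TUBB3) were higher in winter, summing to 911 and 580. Of the oligodendrocyte markers, 5 of 6 were higher in winter, with sums of 37187 and 33482. Microglial markers summed to 1815 and 2084, with 3 of 5 higher in summer and 2 in winter. Endothelial markers summed to 1440 and 1536, with 4 of 6 higher in summer and 2 in winter. Markers of neighbouring hypothalamic cells summed to 906 and 1341. POMC made up 738 and 1294 of the last sum, while the other 3 in the table (PMCH, TRH and HCRT) were higher in winter.

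The markers of ependyma, the ciliated lining of the ventricles, also differed between the summer libraries. All 4 had more reads in the library of the smaller size factor, among them TMEM212 with 82 against 5 and FOXJ1 with 10 against 2. So had the members TRPV1 (13 against 0), CREB3L1 (13 against 1), TRPV4 (33 against 22) and AKR1B1 (142 against 127). That was the common direction, taken by 2118 of the 2629 symbols more than 2-fold apart, and 3 of the 4 markers had means under 10. Any part of ependyma in the members' values was not tested. Their summed means were 34.2 in winter and 65.3 in summer. SLC5A3 and SLC6A6 had fewer reads in that library, at 235 against 452 and 115 against 218. TRPV2 was the member whose summer libraries were closest among the 7 with a single summer solution.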

How the data were processed

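RNA-seq libraries from the supraoptic nucleus were grouped by season from the sample labels. The authors aligned the reads with TopHat to their own dromedary assembly and tallied them with HTSeq, and the deposited count files hold raw counts per gene model (20.7% to 27.8% of tallied alignments lay on gene models). In the deposited table the authors gave a signal per gene symbol, in which counts were scaled by DESeq size factors and averaged over a season, printed to 6 significant digits. The fold changes and p-values of the authors' own comparison in that table were not used. Versions of these tools are not given in the sources used here. A pair of date-like repeated symbols was left out.

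In each library 1 read adds a fixed step to a mean, and from these steps the whole reads behind each mean were recovered. Symbols solved in a single way, with a season mean of 10 or more, were fitted with edgeR 4.0.16 in R 4.3.3 (size factors from the steps, glmQLFit, glmQLFTest, Benjamini-Hochberg adjustment over 7646 symbols). This recovery favours low means. Alternatives were the exact test, DESeq2 1.42.0, the legacy dispersion fit, TMM, RLE, upper quartile and total count scaling, other filters, a fold of 1.5 and leaving out each library. Intervals of count ratios were Clopper-Pearson. The scripts were tested on simulated data.

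The members and gene lists were chosen with earlier results of these data known. The genes named by rule were the 10 members, AVP, and pathway genes beyond 2-fold with a mean of at least 10 (at most 3 per list and direction). AVP and OXT share a stretch of nearly the same sequence in mammals, so their values are uncertain to that extent. RefSeq annotation of the assembly mCamDro1.pat was used for names and neighbouring genes only, and matched 10 of 10 members. Figures were drawn with matplotlib 3.10.9.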

Additional observations from a re-analysis of the deposited data

How the results depend on the processing

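With 2 libraries per season and a spread that differs between the seasons, the fits could show only large differences, and members with high means could not be resolved into libraries. No paired analysis was possible, since the animals of each season were slaughtered on a separate date and none could be sampled in both. Replicate number 2, which both seasons share, therefore marks no pair. The count of members beyond the fold limit was 0 at 2-fold and 1 at 1.5-fold, also among symbols with a mean of at least 1000 (the latter limit was chosen after seeing the data). The 128 symbols past the rule became 60 in DESeq2, 80 with a mean of at least 10 in both seasons, and 35 to 1160 with 1 library left out, the largest counts coming without either summer library (1106 and 1160, against 35 and 50 without either winter library). With total counts as scaling, 168 passed, 122 of them higher in winter, against 65 of 128. Members past the rule numbered 0 to 1 with 1 library left out. The members' fitted log2 fold changes then ranged from -0.58 to -0.34 for AKR1B1, -1.09 to 0.14 for TRPV4 and -0.34 to 3.30 for CREB3L1, those of GADL1 from -2.67 to 2.11 and of NR4A1 from -2.43 to 0.73. With 1 library left out the other season alone gives the spread, and the lone library is assumed to vary like it (biological coefficient of variation 0.288 and 0.289 without a summer library, 0.460 with all). Without the summer library of the larger size factor the log2 fold change was -2.67 for GADL1 and -2.30 for NR4A1. The summer library then left was the one where they held 81 and 55 reads. Without that library instead, the values turned to 2.11 and 0.73. Against each summer library, chosen after seeing the data, the log2 ratio of season means ranged from -0.43 to 0.44 for SLC5A3, -0.64 to 0.014 for TRPV4 and -0.36 to 3.41 for CREB3L1. Of the 146 values for single genes under all alternatives, 121 kept their direction and their side of the threshold or their size. That count is no measure of robustness. Many alternatives, such as a pseudocount on a high mean or another solution of the same means, could hardly change a value. A gene that was not called and stayed so also counted as kept. The 7 values that reversed all came with 1 library left out. The cause of the changes was not tested.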
